A study of Mus musculus with 23 samples.

Results

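Iron leaves a cell through one known exporter and is held inside it in ferritin, and the 7 genes described here cover both steps. They are Slc40a1 (ferroportin, the iron exporter of the plasma membrane), Heph and Cp (hephaestin and ceruloplasmin, the copper ferroxidases that oxidise iron as it leaves), Fth1 and Ftl1 (the heavy and light chains of ferritin), Ncoa4 (the cargo receptor that takes ferritin to lysosomes) and Hmox1 (haem oxygenase 1, which frees iron from haem). They were chosen by symbol as a functional group, 7 of the 32285 genes of the table, and all of them had UMIs. A UMI is a molecular tag, so that 1 UMI stands for 1 captured RNA molecule.

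RNA of single mouse brain cells was counted after an intravenous dose of a dye-labelled (AF647) antibody. The antibody ATV-TfR, which binds the transferrin receptor (gene Tfrc), went into mice with the TfR mu/hu KI allele, in which the receptor is partly human. ATV-CD98hc, labelled monovalent, binds CD98hc (gene Slc3a2) and went into CD98hc mu/hu KI mice, while control IgG went into C57BL/6J mice without a knock-in. Per the labels the knock-ins are on the C57BL/6J background, and the antibodies carry the LALAPG change. Each mouse received 45 mg/kg, was 12 weeks old (3.3 months in the labels) and was examined 24 hours later. Treatment and genotype therefore coincide and cannot be told apart. Live cells were sorted by fluorescence into a negative, a low, a medium and a high bin, with gates set on the ATV-TfR mice and used for all. Every library is 1 bin of 1 pool, which joins the cells of 1 male and 1 female, and each treatment has 2 pools. Of the control IgG negative bin only replicate 2 is a library here, which gives 23 libraries in 12 groups. Actinomycin D and anisomycin, which block new RNA and protein, were present while the tissue was broken up, and myelin was removed on sucrose, for every group alike.

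Cells hold iron in balance at the level of RNA. Iron regulatory proteins bind a hairpin, the iron-responsive element, when iron is short: in the 5′ untranslated region it holds back translation, as for ferritin and ferroportin, and in the 3′ untranslated region it keeps the RNA from decay, as for the transferrin receptor. RNA levels of ferritin and ferroportin therefore miss that step of control. In the brain, endothelial cells form the barrier that iron must cross, and oligodendrocytes and macrophages are known as iron-rich cells.

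The hairpins are printed here because they set apart the members whose RNA carries this control. The untranslated regions of GENCODE M21 transcripts (GRCm38, the build of the submitters' notes) were searched for a loop of the letters CAGTGN. The 5 bases before the loop had to pair with the 5 after it (the upper stem, G-T pairs allowed), with a C just before them. Whether that C was unpaired, or whether a lower stem followed, was not checked. The loop is in capitals, and each run reads 5′ to 3′ on the strand of the gene.
Fth1: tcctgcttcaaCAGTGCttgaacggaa
Ftl1: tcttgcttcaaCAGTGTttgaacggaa
Slc40a1: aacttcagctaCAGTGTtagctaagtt
Tfrc, first of 4: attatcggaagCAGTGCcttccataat
The Fth1 hairpin lies at chr19:9982733-9982759 on the plus strand, the Ftl1 hairpin at chr7:45459780-45459806 on the minus strand and the Slc40a1 hairpin at chr1:45925466-45925492 on the minus strand, all within the 5′ untranslated region. The Tfrc hairpin shown lies at chr16:32631220-32631246 in the 3′ untranslated region, where the search found 4. Elements with another loop would be missed, so 4 is not a count of all iron-responsive elements there. Counted from the 5′ end of the 27 bases, Fth1 and Ftl1 share 25 bases and differ by C3T and C17T, while Fth1 and Slc40a1 share 13. Such a hairpin was found in the 5′ untranslated region of 28 of 20319 genes (0.138%), among them 3 of the 7 members. It was found in the 3′ region of 127 of 20855 genes (0.609%) and of none of the members. A match is a description of letters and does not show binding.

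In the same annotation Slc40a1 (ENSMUSG00000025993) spans chr1:45908068-45926523 and Cp (ENSMUSG00000003617) chr3:19957054-20009145. Ftl1 (ENSMUSG00000050708) spans chr7:45457944-45459884, Hmox1 (ENSMUSG00000005413) chr8:75093621-75100589 and Ncoa4 (ENSMUSG00000056234) chr14:32159865-32179855. Fth1 (ENSMUSG00000024661) spans chr19:9980598-9985098 and Heph (ENSMUSG00000031209) chrX:96455359-96574485. Ftl1-ps1 (ENSMUSG00000062382, chr13:74399694-74407346) is a near-identical copy of Ftl1, so the counts of both are uncertain where reads could be given to either.

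The matrix held 1129743851 UMIs in 265025 barcodes, with 1861238 to 90307818 UMIs per library, and 234928 cells were kept. Clusters were named from marker genes into 12 classes, written with the ending -like. Endothelial-like (96005 cells) and astrocyte-like cells (92108) made up most of them, and 12396 cells (5.28%) stayed unnamed. Of the barcode sequences, 8510 occurred in more than 1 library, and 6.48% of the barcodes carry one. Counts of the dosed receptors' genes differed between genotypes: in the negative bin, the Tfrc count of astrocyte-like cells was lower in ATV-TfR than in ATV-CD98hc mice (log2 fold change -1.03, adjusted p = 0.000587, edgeR), and their Slc3a2 count was lower in ATV-CD98hc mice than in control IgG (-0.96, adjusted p = 0.00106), an arm of 1 library that is assumed to vary like the other groups. How reads of the humanised alleles were counted is not given in the sources used here. For Tfrc and Slc3a2, a difference in RNA and one in counting therefore cannot be told apart wherever treatments are compared.

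Levels are given as CPM, the UMIs of a gene in a class when all UMIs of that class are scaled to 1000000, first for each pool over all its bins and then for each library. A pool's value weights the bins by their cells. Slc40a1, the exporter, was highest in endothelial-like cells, with 344 ± 47.1 CPM (SD, n = 6 pools) and a range from 287 to 411. No pool of another class reached that range. Neutrophil-like cells followed with 145 ± 47.2 CPM (n = 5), microglia-like cells with 124 ± 32.2 (n = 6) and border macrophage-like cells with 93.6 ± 33.3 (n = 6), and the pools of these 3 overlapped. There were only 243 neutrophil-like cells, and free RNA of other cells counted under a barcode was not estimated for any class. Pericyte-like cells had 17.4 ± 8.49 CPM and fibroblast-like cells 13.4 ± 1.87, again overlapping. Choroid plexus epithelial-like, smooth muscle-like, ependymal-like, astrocyte-like and monocyte or dendritic cell-like cells had means from 3.07 to 7.63 CPM. Oligodendrocyte-like cells were lowest at 0.839 ± 0.391 CPM (n = 5). In the ATV pools the endothelial value rests on the brighter bins. The control IgG pools were the 2 highest. Pool 1 of control IgG holds mostly low cells and has no negative library, and pool 2 holds mostly negative and low cells. In the negative bins alone the endothelial mean was 152 CPM (SD 104, n = 5), which includes the control IgG library at 327 CPM. The 4 ATV negative libraries had 59.1 to 155 CPM, overlapping the 119 to 161 CPM of microglia-like cells in the negative bins.

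The 2 ferroxidases shared their highest class, fibroblast-like cells, and differed in the classes below it. Heph, the membrane-bound form, was highest in fibroblast-like cells at 159 ± 53.5 CPM (n = 6), then in astrocyte-like cells at 40.1 ± 4.59 (n = 5) and ependymal-like cells at 17.3 ± 5.78 (n = 5), with no overlap between these 3. Endothelial-like cells had 5.38 ± 0.79 CPM, and oligodendrocyte-like cells 0.453 ± 0.134. Fibroblast-like Heph had lower values in the negative than in the high bins listed next, a difference that was not tested. The negative libraries had 9.56 and 33.4 CPM in ATV-TfR, 32.5 and 20.7 in ATV-CD98hc and 37.3 in control IgG, against 197 and 130 in the control IgG high bin and 231 and 224 in the ATV-CD98hc high bin. With negative bins alone the fibroblast-like mean fell to 26.7 CPM, and astrocyte-like cells were then highest.

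Cp, the soluble or lipid-anchored form, was highest in fibroblast-like cells at 1136 ± 93.9 CPM (n = 6) and in pericyte-like cells at 520 ± 78.1 (n = 5), which did not overlap each other or any other class. Border macrophage-like (165 ± 50.8), endothelial-like (149 ± 15.7), smooth muscle-like (106 ± 20.0) and ependymal-like cells (84.1 ± 8.65) overlapped from one to the next. Astrocyte-like cells were lowest at 1.18 ± 0.189 CPM (n = 5). Unlike Heph, Cp in fibroblast-like cells was high in the negative bins too, with a mean of 1063 CPM (SD 111, n = 5 pools). It had 1039 and 1151 CPM in ATV-TfR negative, 1169 in control IgG negative and 888 and 1040 in control IgG high. Differences between these bins were not tested.

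Ferritin heavy chain Fth1 was highest in oligodendrocyte-like cells at 19588 ± 1267 CPM (n = 5), with no overlap with the next class. Border macrophage-like cells had 7743 ± 1818 CPM, and from there to astrocyte-like cells at 1330 ± 100, the lowest, each class overlapped the next. The oligodendrocyte level was not the same in every bin. The negative and low libraries of both ATVs lay between 17996 and 23202 CPM, while the medium libraries had 8347 and 10059 CPM in ATV-TfR (74 and 59 cells) and 13722 and 15040 in ATV-CD98hc (46 and 41 cells). That difference was not tested. Light chain Ftl1 had another order. Border macrophage-like cells were highest at 3531 ± 632 CPM, followed with overlap by monocyte or dendritic cell-like (2646 ± 749), fibroblast-like (2378 ± 618) and neutrophil-like cells (2348 ± 536). Oligodendrocyte-like cells had 828 ± 101 CPM of Ftl1, and astrocyte-like cells were lowest at 248 ± 28.7 with no overlap. In the negative bins alone monocyte or dendritic cell-like cells were highest for Ftl1, at 3789 CPM in the 1 pool that gave a value, beside 3245 in border macrophage-like cells. The copy Ftl1-ps1 was low everywhere, from 2.30 CPM in astrocyte-like to 28.5 in border macrophage-like cells.

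Ncoa4, the ferritin cargo receptor, had the narrowest range of the 7 as a ratio of the highest to the lowest class mean. Endothelial-like cells (101 ± 13.8 CPM, n = 6) and neutrophil-like cells (98.3 ± 7.97, n = 5) overlapped and lay above the others, whose means ran from 23.9 to 53.7 CPM. With finer clusters border macrophage-like cells were highest for Ncoa4 instead, at 111 ± 25.4 CPM (n = 6) beside 102 in endothelial-like cells, and without control IgG pool 1 neutrophil-like cells were highest (102 against 96.2). Hmox1 was highest in border macrophage-like cells at 63.8 ± 11.3 CPM (n = 6). Microglia-like cells had 39.8 ± 39.0 CPM. Control IgG pool 1, which has no negative library here and holds 27 low and 2 medium microglia-like cells, had 119 CPM, and the median of the 6 pools was 26.4. Endothelial-like cells had 9.79 ± 2.69 CPM and astrocyte-like cells 5.13 ± 0.51.

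**Figure D1:**
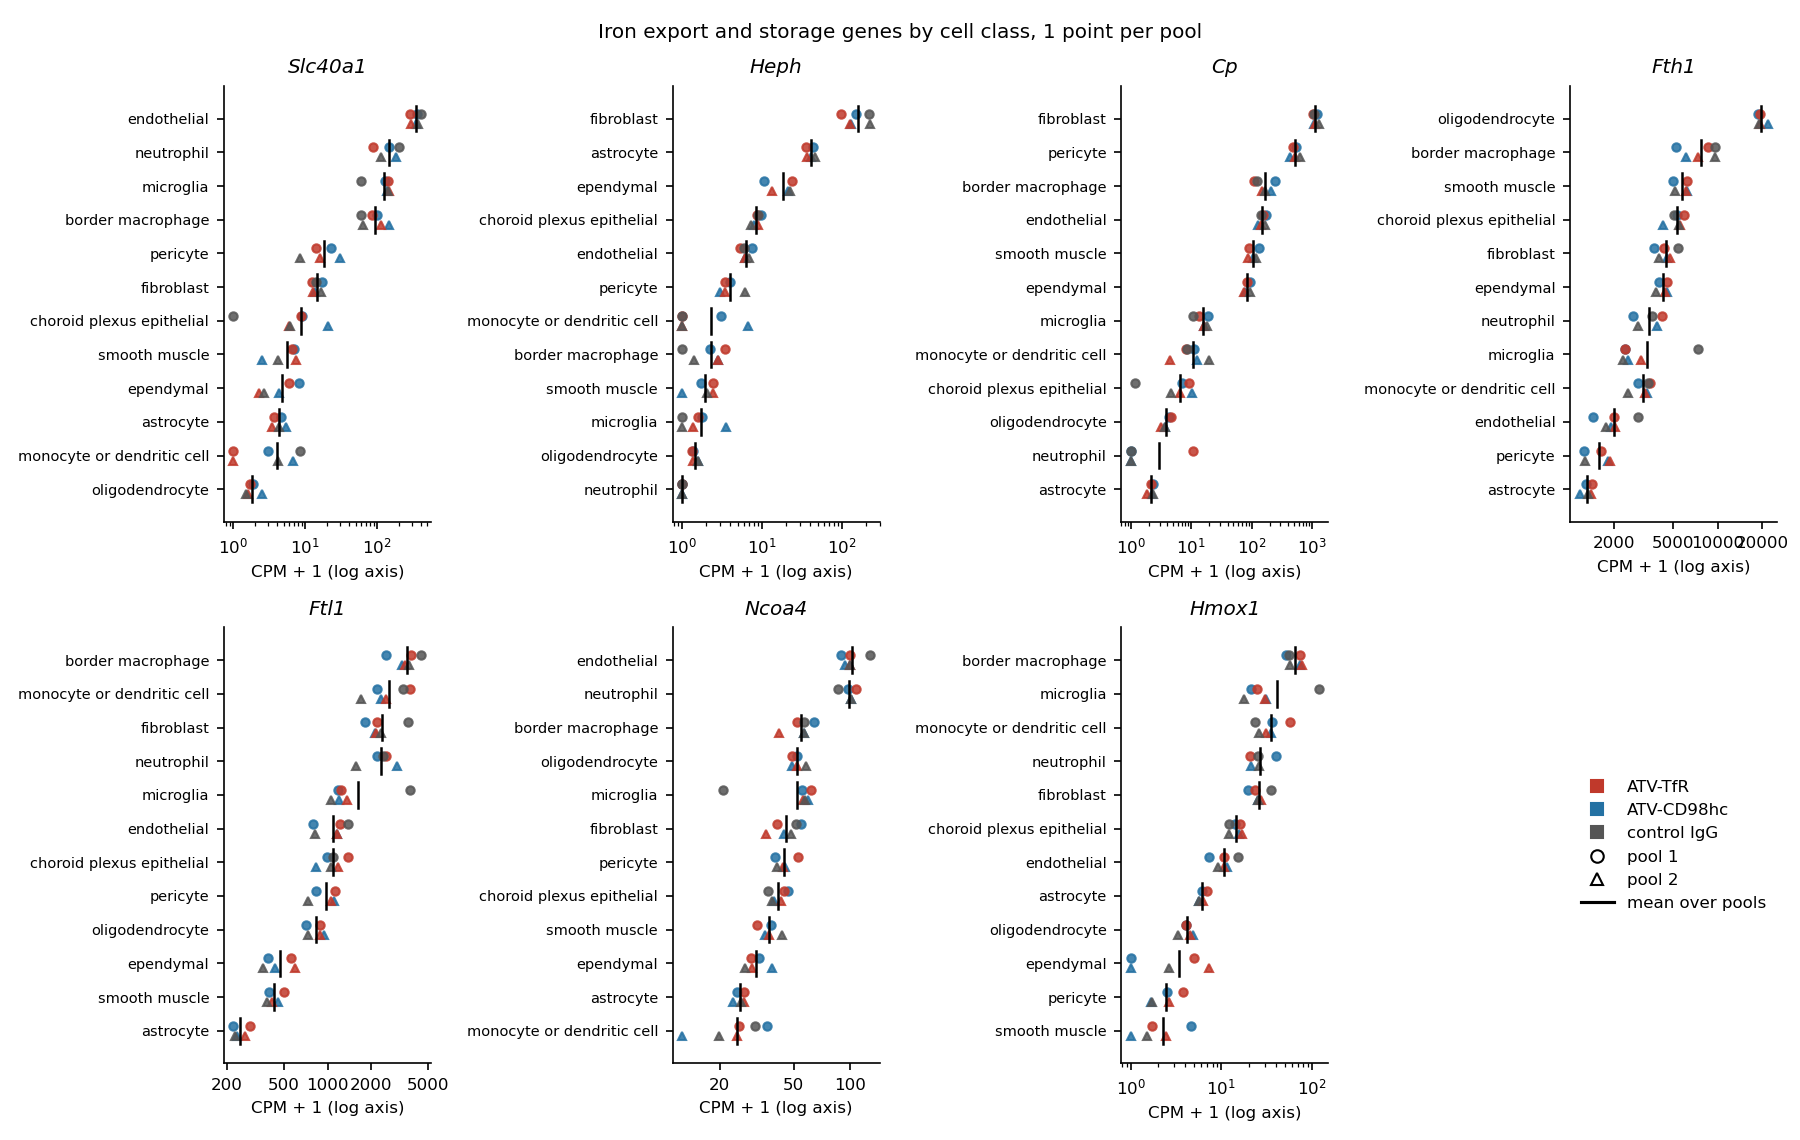
Level of each of the 7 genes by cell class on a log axis of CPM + 1, with 1 point per pool coloured by treatment and a bar at the mean over pools. Slc40a1 stands highest in endothelial-like cells (344 CPM), Fth1 in oligodendrocyte-like cells (19588 CPM), Heph and Cp in fibroblast-like cells, and Ftl1 and Hmox1 in border macrophage-like cells.

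The genes most like each member in their pattern over the classes were found by Pearson's r of mean log2(CPM + 1) over the 12 classes, among 11330 genes. The points share libraries and depth, so r is a description. Arap3 (r = 0.952), Prkab1 (0.939) and Gbe1 (0.878) were most like Slc40a1. Boc, Robo2 and Adamts9 (0.929, 0.929 and 0.924) were most like Heph, and Prkg1, Scarf2 and Bbx (0.910, 0.892 and 0.877) most like Cp. For Fth1 no gene passed 0.789 (Cd82, then Rtn4 at 0.788 and Synj2 at 0.776). Ftl1 was most like its copy Ftl1-ps1 (0.974), then Ifi27l2a (0.928) and Hpcal1 (0.899). Ncoa4 was most like Adipor1 (0.858), Tfip11 (0.815) and Far2 (0.800), and Hmox1 most like Ifi27l2a (0.916), Nfe2l2 (0.910), which encodes the stress-response factor NRF2, and Ppm1h (0.908).

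The first comparison between bins asked whether these genes differed between endothelial-like cells with much and with no antibody signal. Slc40a1 rose and Cp fell from the negative to the high bin of both ATVs, and Ncoa4 rose in ATV-TfR. Fth1, Ftl1, Hmox1 and Heph did not pass the test in either. The negative bins held few of these cells, 122 and 76 in ATV-TfR and 76 and 54 in ATV-CD98hc, against 16229 and 15163, and 8915 and 11404, in the high bins.

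Slc40a1 had 94 and 59.1 CPM in the ATV-TfR negative libraries, 69.0 and 59.9 in the low, 187 and 183 in the medium and 303 and 309 in the high. In ATV-CD98hc it had 155 and 124, 204 and 226, 342 and 329, and 389 and 375 CPM in the same order. Negative and high libraries did not overlap in either. The steps between neighbouring bins were not tested. The log2 fold change of high over negative was 2.08 (SE 0.209, adjusted p = 1.37e-07) in ATV-TfR and 1.60 (SE 0.211, adjusted p = 1.62e-05) in ATV-CD98hc, by edgeR's quasi-likelihood test with adjustment over all 14913 genes. With finer clusters the ATV-CD98hc value was 0.999, still called. Control IgG endothelial-like cells had 327 CPM in the negative library, 413 and 409 in the low and 259 and 329 in the medium libraries. The unlabelled cells of the control therefore lay with the bright cells of the ATVs, and the negative cells of both ATVs lay below all control libraries.

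Cp went the other way. ATV-TfR libraries had 303 and 438 CPM in the negative, 419 and 380 in the low, 232 and 223 in the medium and 138 and 131 in the high bin. ATV-CD98hc libraries had 365 and 324, 220 and 231, 168 and 123, and 164 and 116 CPM. Control IgG had 172 CPM in the negative library and 145 and 157 in the low, near the bright ATV bins. The log2 fold change was -1.31 (SE 0.206, adjusted p = 8e-05) in ATV-TfR and -1.14 (SE 0.218, adjusted p = 0.00153) in ATV-CD98hc. The call was lost with finer clusters in both (-0.35 and -0.26), and without ATV-TfR replicate 2 in ATV-TfR (-0.95). The finer run also changed the cells of the class. It left a cluster of 987 cells led by Gkn3 unnamed and named a cluster of 83 cells led by Coch endothelial. The part of this in the lost call was not tested.

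Ncoa4 had 46.0 and 48.6 CPM in the ATV-TfR negative libraries, 41.2 and 53.6 in the low, 82.1 and 85.5 in the medium and 102 and 102 in the high. Its log2 fold change was 1.25 (SE 0.236, adjusted p = 0.000624), with no overlap of negative and high libraries. Without ATV-TfR replicate 1 or 2 it was 1.24 and 1.35 and no longer called. In ATV-CD98hc the values were 62.7 and 82.5 in the negative and 90.9 and 99.9 in the high libraries, with a log2 fold change of 0.60 (adjusted p = 0.23).

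Neither ferritin chain passed the test, though Fth1 was lower in the high than in the negative library of each pool. Fth1 had 2550 and 2939 CPM in the ATV-TfR negative and 1966 and 1989 in the high libraries (log2 fold change -0.34, adjusted p = 0.46), and 2141 and 3099 against 1519 and 1963 in ATV-CD98hc (-0.42, adjusted p = 0.398). The negative and high libraries of Fth1 did not overlap in either. With the pool kept as a block in edgeR, Fth1 passed in ATV-CD98hc (-0.41, adjusted p = 0.0297) and not in ATV-TfR (-0.333, adjusted p = 0.0615). With finer clusters its ATV-CD98hc value was 0.0139. In ATV-CD98hc the block also lowered edgeR's adjusted p of Slc40a1, to 1.76e-10, and of Cp, to 2.55e-07. The share of all genes called with the block is not given here, so the Fth1 call has no background beside it. Ftl1 had log2 fold changes of 0.24 and 0.00, each with libraries that overlapped between the bins. Heph and Hmox1 stayed at or under 12.2 CPM in these bins, with standard errors up to 1.25, too wide to show differences of the size seen for Slc40a1.

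Of the 7 members, 2 rose and 1 fell in ATV-TfR, where 10.2% of all genes tested were called. In ATV-CD98hc 1 rose and 1 fell, where 5.2% were called. The median log2 fold change of the members was 0.49 and 0.26, beside 0.09 and 0.16 over all genes. The difference between these 2 contrasts was tested itself, and no member passed: 0.47 (SE 0.304) for Slc40a1, 0.65 for Ncoa4 and -0.17 for Cp, with adjusted p from 0.924 upwards in edgeR. None of the 7 had an unadjusted p under 0.05 and DESeq2 called 0, while 0.00671% of all genes were called.

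The endothelial-like cells of the bins were not of one make-up. A cluster led by Plvap, a gene of fenestrated vessels outside the barrier, held 37.4% of them in the ATV-TfR negative bin, 11.5% in the ATV-CD98hc negative bin and 0.795% in the control IgG negative library, against 0.00319% and 0.0591% in the high bins. A cluster led by Gkn3, a gene known from arteries, held 50.5% and 63.1% in the ATV negative bins and 22.1% and 12.8% in the high bins. Leaving out the Plvap cluster gave log2 fold changes of 1.54 and 1.44 for Slc40a1, -1.74 and -1.28 for Cp and 0.94 for Ncoa4 in ATV-TfR, all called. Within the Gkn3 cluster alone Slc40a1 had 59.0 and 50.7 CPM in the ATV-TfR negative and 190 and 199 in the high libraries, and 109 and 77.9 against 243 and 230 in ATV-CD98hc, with log2 fold changes of 1.94 and 1.41, both called. Within that cluster Cp was called in ATV-TfR (-1.41) and not in ATV-CD98hc (-0.70), and Ncoa4 was called in ATV-TfR (1.26). The Slc40a1 values of the negative libraries in that cluster rest on few UMIs, 14 and 9 in ATV-TfR and 21 and 8 in ATV-CD98hc. Those of Ncoa4 in ATV-TfR rest on 8 and 9 UMIs. The alternatives without the Plvap cluster and within the Gkn3 cluster were added after the values had been seen.

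Summed marker lists moved with the bins too. The summed endothelial markers (12 genes) rose from 19106-19586 CPM in ATV-TfR negative to 28517-28525 in high, and from 22173-22647 to 29535-29553 in ATV-CD98hc. The fibroblast list (9 genes) stood at 1374-2296 CPM in ATV-TfR negative with 2 markers at 0, and at 744-1272 in ATV-CD98hc negative with 6 at 0. It stood at 23.7-28.9 and 19.9-22.96 CPM in the high bins. In the ATV-TfR negative bin 98.6% of that list's UMIs were Mgp, and the list summed to 12567 CPM in fibroblast-like cells themselves. The astrocyte list (12 genes) fell from 188-285 to 79.1-81.1 CPM in ATV-TfR, and the pericyte list (9 genes) rose from 139-215 to 559-567. In ATV-CD98hc negative the 5 haemoglobin and erythroid genes ranged from 0 to 5657 CPM between the 2 libraries. The part of these in the differences of Slc40a1, Cp and Ncoa4 was not tested. Median depth was 3620.5 UMIs per cell in ATV-TfR negative and 3334 in high, and 3024.5 and 3713 in ATV-CD98hc.

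**Figure D2:**
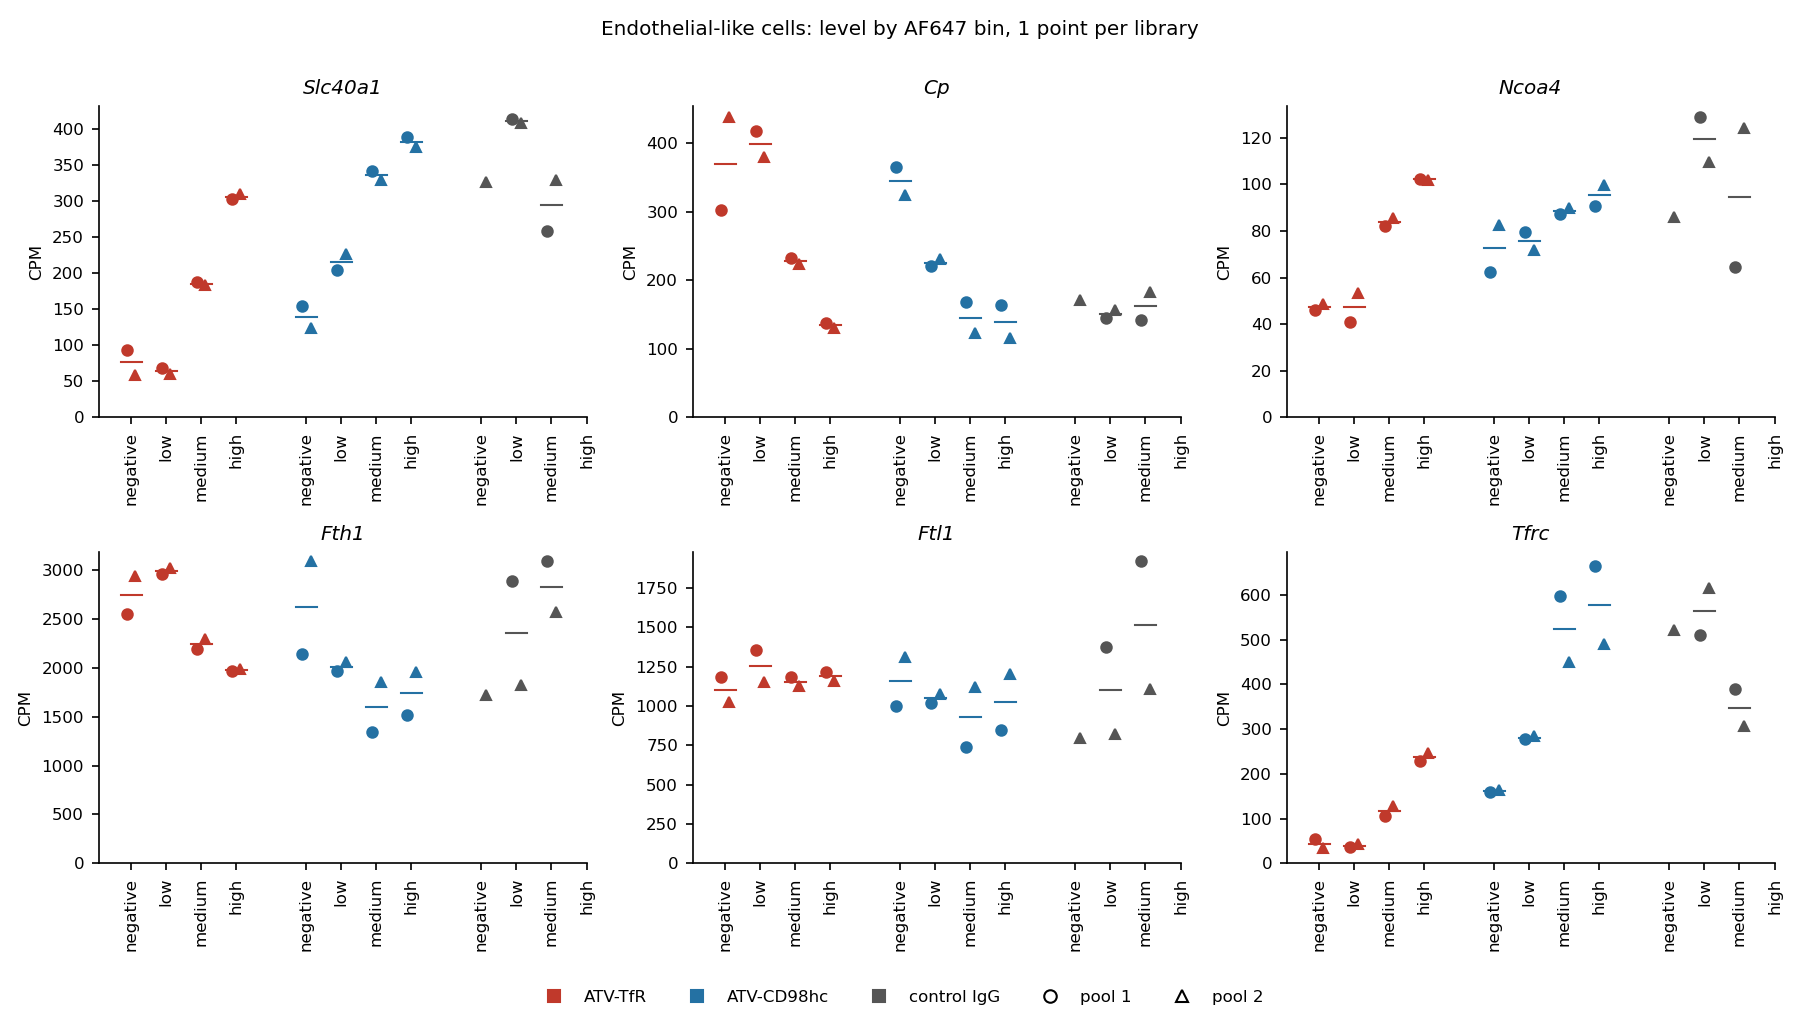
Level in CPM of Slc40a1, Cp, Ncoa4, Fth1, Ftl1 and Tfrc in endothelial-like cells by AF647 bin, with 1 point per library (circle pool 1, triangle pool 2) and a bar at the mean. Slc40a1 climbs from 59.1-94 to 303-309 CPM in ATV-TfR while Cp drops from 303-438 to 131-138. For both genes the negative and low control IgG libraries lie near the bright bins of the ATVs. Tfrc in the control IgG negative library stands above ATV-TfR high.

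Other iron genes were taken from lists. Of the iron uptake list, 8 of 11 listed genes were measured in endothelial-like cells, and 2 rose and 1 fell in ATV-TfR while 3 rose in ATV-CD98hc. Tfrc, the transferrin receptor, rose by a log2 fold change of 2.49 (adjusted p = 3.4e-07) and 2.00 (adjusted p = 4.6e-06), with 53.7 and 34.7 CPM in ATV-TfR negative, 228 and 247 in high, and 523 in the control IgG negative library. Slc39a8, a metal ion importer, rose by 2.21 and 1.73 (adjusted p = 4.53e-06 and 0.000276). The related importer Slc39a14 fell in ATV-TfR (-5.18, adjusted p = 1.63e-05), and Steap3, a ferrireductase, passed in ATV-CD98hc (1.94, adjusted p = 0.0432) on 1 and 3 UMIs in the negative libraries. The Steap3 call was lost under 12 of 15 alternatives, among them DESeq2 (adjusted p = 0.139), RLE scaling (0.0885) and finer clusters (log2 fold change 1.14).

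Of the iron regulation list 8 of 11 genes were measured, and Bmp6, the signal that raises hepcidin in the liver, fell in both. It had 117 and 125 CPM in ATV-TfR negative and 0.461 and 0.492 in high (log2 fold change -7.83, adjusted p = 2.01e-12), and 11.1 and 29.5 against 1.31 and 1.10 in ATV-CD98hc (-3.76, adjusted p = 0.0014). In ATV-CD98hc that call was lost without the Plvap cluster (-0.93), within the Gkn3 cluster (-2.41) and without ATV-CD98hc replicate 2 (-2.93). Of the copper supply list 3 of 4 were measured. Slc31a1, the copper importer, rose in both (1.56 and 1.60, adjusted p = 1.28e-05 and 0.00014), and the copper chaperone Atox1 passed in ATV-TfR (0.78, adjusted p = 0.0369), a call lost under 7 of 15 alternatives, RLE scaling (0.65) and DESeq2 (0.65) among them. None of the 8 haem handling genes and none of the 8 genes of the NRF2 list passed in either contrast by edgeR, with list medians from -0.26 to 0.13. The NRF2 list holds Nfe2l2 itself and Keap1 beside target genes.

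Between treatments, edgeR called no member in endothelial-like cells of the high bins or of whole pools. The negative bins of this class were not compared between treatments, and whole pools differ in their mix of bins. In the high bins the log2 fold changes of ATV-TfR over ATV-CD98hc ran from -0.33 for Slc40a1 (SE 0.163, adjusted p = 1) to 0.20 for Ftl1, with 0 of 7 under an unadjusted p of 0.05 and 0 called by DESeq2, beside 0.0805% of all genes. The Tfrc count, with the limit on humanised alleles given above, was among those called (-1.29, adjusted p = 0.00495), but not without ATV-TfR replicate 1 (-1.21) or 2 (-1.32). Over whole pools, 0 of 7 members were called, 0 had an unadjusted p under 0.05 and DESeq2 called 0 in each of ATV-TfR minus ATV-CD98hc, ATV-TfR minus control IgG and ATV-CD98hc minus control IgG. No gene of 16420 was called there (0% each). The last 2 of these share the control pools. Slc40a1 had -0.21, -0.35 and -0.15 in that order, with standard errors of 0.18.

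Border macrophage-like cells made up most of the named cells in the control IgG high bin (402 and 369 cells). There Slc40a1 fell steeply with the signal, and Ncoa4 fell as well. Slc40a1 had 131 and 111 CPM in the low libraries, 62.5 and 52.6 in the medium and 18.7 and 8.87 in the high, beside 156 in the single negative library (26 cells). Its log2 fold change of high over low was -3.12 (SE 0.364, adjusted p = 2.05e-07, edgeR), and the call held in each alternative run. With finer clusters the value was -1.85, in a class of 861 cells in place of 2789. The main class had both Mrc1 and the antigen-presentation gene H2-Aa among its leading genes. In the finer run the 861 cells were led by Mrc1, while 1924 cells with H2-Aa among their leading genes stayed unnamed. Ncoa4 had 77.9 and 84.2 CPM in the low and 46.2 and 34.4 in the high libraries (log2 fold change -1.05, SE 0.286, adjusted p = 0.0487). Neither gene's low and high libraries overlapped, but the Ncoa4 call was lost under 9 of 12 alternatives, DESeq2 and RLE scaling among them. Fth1 (-0.60), Ftl1 (-0.49), Hmox1 (-0.79) and Cp (0.02) did not pass, and Heph was under the filter on low counts. So 2 of 6 members tested fell, beside 1.53% of all genes called.

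In the ATVs the same 2 bins were compared after the values had been seen. ATV-CD98hc had 59.5 and 224 CPM of Slc40a1 in the low, 199 and 290 in the medium and 32.0 and 21.5 in the high libraries. The log2 fold change of high over low was -2.39 (SE 0.486, adjusted p = 0.00498), 1 of 6 members beside 1.36% of genes. DESeq2 called 0 of 6 there and gave no adjusted p for Slc40a1. The low libraries stood far apart, and without ATV-CD98hc replicate 2 the value was -0.999 and not called, nor was it with finer clusters (-1.51). ATV-TfR had 184 and 201 CPM in the low, 103 and 177 in the medium and 75.4 and 78.1 in the high libraries (-1.37, adjusted p = 0.221). Fth1 there had 10330 and 9050 CPM against 4752 and 5672 (-0.94, adjusted p = 0.175), and passed with the pool as a block (-0.935, adjusted p = 0.0313) and with DESeq2 (adjusted p = 0.0109), while finer clusters turned its sign (0.415). In ATV-TfR edgeR called 0 of 6 members, 3 had an unadjusted p under 0.05 and DESeq2 called 1, beside 0.216% of genes. That share is of the main fit, and the shares with the block and with DESeq2 are not given here. The ATV-TfR negative libraries, with 60 and 41 cells, had only 12.2 and 14.7 CPM of Slc40a1, so that its level did not follow the signal in one direction there.

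Other markers moved with the control IgG bins. The border macrophage list (9 genes) summed to 8215-10288 CPM in the low and 5970-6411 in the high libraries, with none at 0. Lyve1, a marker of perivascular macrophages, had 333 and 172 CPM in the low and 2.20 and 8.87 in the high, Cd163 430 and 272 against 197 and 120, and the antigen-presentation gene H2-Aa 4007 and 3124 against 5987 and 4154. The monocyte or dendritic list (8 genes) stood at 6858-9442 and 8227-12094 CPM with 0 and 2 markers at 0, and the microglia list (10 genes) at 4306-5001 and 5220-5319. The choroid plexus epithelial list (8 genes) stood at 386-551 and 48.4-101 CPM. Median depth was 2489 and 1939 UMIs per cell. Their part in the fall of Slc40a1 and Ncoa4 was not tested.

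Microglia-like cells were few in the bright bins, and in the ATV-TfR high bin (11 and 9 cells) they lay under the floor of 20 cells. In ATV-CD98hc the high libraries (65 and 26 cells) passed that floor, but the medium and high bins were not tested. The low bin was set against the negative after the values had been seen. In ATV-TfR Slc40a1 was lower in the low bin, and both ferritin chains had higher values without passing the test. Slc40a1 had 146 and 161 CPM in the negative, 93.0 and 86.2 in the low and 71.3 and 75.0 in the medium libraries (39 and 45 cells). The log2 fold change of low over negative was -0.71 (SE 0.176, adjusted p = 0.0148, edgeR), with no overlap, and the call was lost without ATV-TfR replicate 1 (-0.82) or 2 (-0.58). Ftl1 had 1110 and 1078 CPM against 1974 and 1945 (0.91, SE 0.265), with an adjusted p of 0.05 that just missed the threshold. It passed under 10 of 14 alternatives, also with the pool as a block (0.905, adjusted p = 1.41e-05). Fth1 had 2240 and 2581 CPM against 3341 and 4246 (0.72, adjusted p = 0.174), and it passed with the pool as a block (0.709, adjusted p = 0.00128). Ncoa4 (-0.40), Hmox1 (0.40) and Cp (0.28) did not pass. So 1 of 6 members was called, beside 3.54% of all genes (389 of 10995). With the pool as a block 3 members were called, and 648 of the 10995 genes.

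In ATV-CD98hc no member was called between the low and the negative bin. Slc40a1 had 143 and 119 CPM in the negative and 127 and 148 in the low libraries (log2 fold change 0.06, adjusted p = 0.984), which overlap. It had 113 and 86.1 in the medium and 51.1 and 19.1 in the high libraries (65 and 26 cells), where Fth1 had 5818 and 9570 CPM and Ftl1 2375 and 4212. By edgeR 0 of 6 members were called in low over negative, 0 had an unadjusted p under 0.05 and DESeq2 called 0, beside 1.13% of genes. The difference between the treatments was -0.77 for Slc40a1 (SE 0.244, unadjusted p = 0.00348, adjusted p = 0.973), so it was not shown to differ. It was the 1 member under an unadjusted p of 0.05, DESeq2 called 0, and 0.0091% of genes were called. The control IgG low libraries (27 and 25 cells) had 62.5 and 75.4 CPM of Slc40a1 and 7549 and 4986 of Fth1, beside 142 and 2147 in the negative library.

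Among the listed genes in microglia-like cells, none of the 7 iron uptake, 7 iron regulation and 8 haem handling genes measured passed in low over negative of either ATV. Of 7 measured genes of the NRF2 list 1 target passed in each ATV, and of 3 copper supply genes 1 passed in ATV-TfR. Slc7a11, the cystine carrier and that NRF2 target, passed in the low bin of both ATVs (1.34 and 2.18, adjusted p = 0.0474 and 0.0036), and Atox1 passed in ATV-TfR (0.79, adjusted p = 0.0228). In ATV-TfR the Slc7a11 call was lost under 5 of 13 alternatives: DESeq2 (adjusted p = 0.0572), the stricter cell filter (1.08), the Gpr34 cluster alone (0.93) and either ATV-TfR replicate left out (1.52 and 1.17). In ATV-CD98hc it was lost without replicate 1 (3.78) or 2 (1.70). The Atox1 call was lost with DESeq2 (adjusted p = 0.0916) and without ATV-TfR replicate 1 (0.91) or 2 (0.68). These 2 lie outside the rule for named genes and were picked after their values were seen. The microglia list summed to 21573-23742 CPM in the ATV-TfR negative and 18254-20867 in the low libraries. The astrocyte list (12 genes) stood at 439-535 and 1015-1025 CPM and the dividing cell list (6 genes) at 3.86-9.12 and 87.1-144, with none of their markers at 0. The larger of the 2 microglia clusters, led by Gpr34, gave -0.69 for Slc40a1 and called Ftl1 (0.94) and Fth1 (0.80) too. The part of those lists in the differences was not tested.

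**Figure D3:**
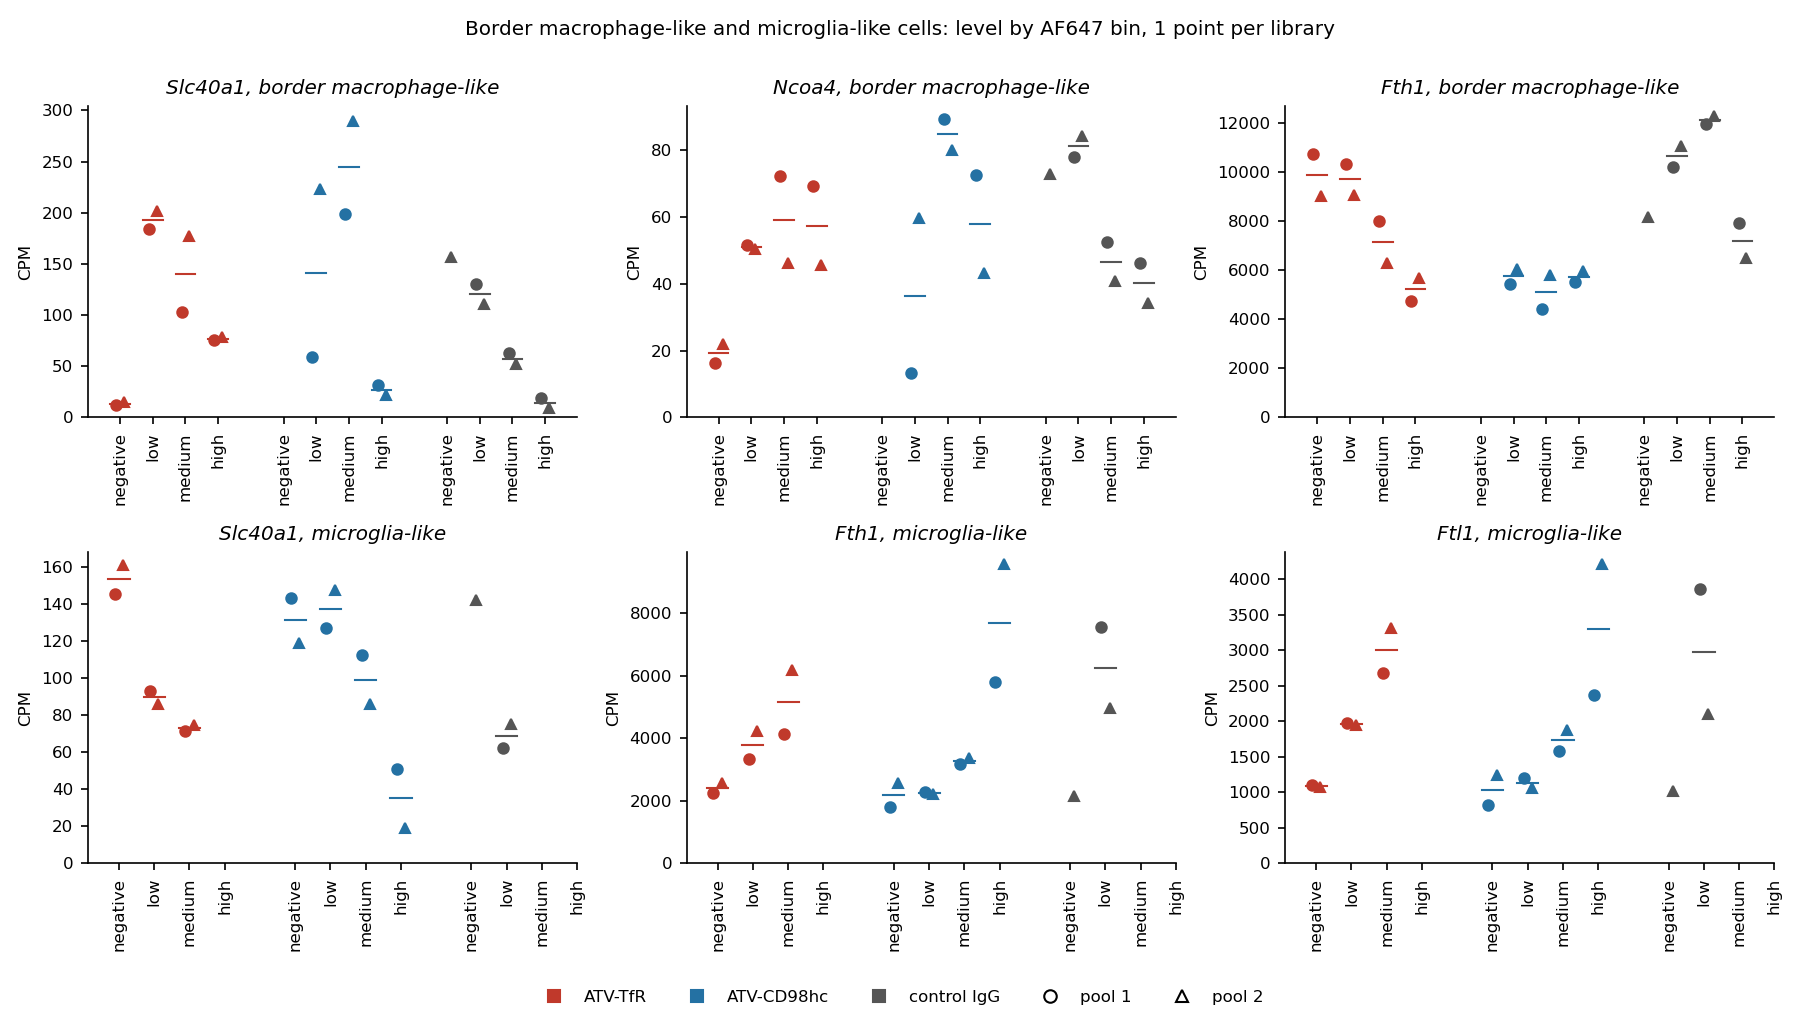
Level in CPM of Slc40a1, Ncoa4 and Fth1 in border macrophage-like cells and of Slc40a1, Fth1 and Ftl1 in microglia-like cells by AF647 bin, with 1 point per library and a bar at the mean. In control IgG Slc40a1 of border macrophage-like cells drops from 111-131 CPM in the low to 8.87-18.7 in the high bin, and in ATV-TfR microglia-like Slc40a1 drops from 146-161 to 86.2-93.0 while Ftl1 stands higher.

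Between the treatments, microglia-like cells of the negative bins showed no difference in 6 members. For ATV-TfR minus ATV-CD98hc the log2 fold changes ran from -0.54 (Cp) to 0.49 (Hmox1), and for the 2 contrasts with the single control IgG library from -0.33 to 0.53 and from -0.07 to 0.20. In each, edgeR and DESeq2 called 0 members and 0 had an unadjusted p under 0.05. Over all genes 0.0091%, 0.109% and 0.0364% were called. Slc40a1 lay between 119 and 161 CPM in all 5 negative libraries.

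Astrocyte-like cells carried the second-highest Heph and the lowest Cp, Fth1 and Ftl1. The negative and low libraries of the ATVs held 1575 to 15216 of these cells, and no member was called in any of their comparisons by edgeR or DESeq2. Heph had 35.6 and 35.0 CPM in the ATV-TfR negative libraries and 33.9 and 35.2 in the low (log2 fold change 0.01, SE 0.12). In ATV-CD98hc it had 39.4 and 30.2 against 41.8 and 40.2 (0.24, SE 0.12, adjusted p = 0.385), and 46.0 in the control IgG negative library. Fth1 had 1479 and 1524 CPM against 1367 and 1388 in ATV-TfR (-0.08) and 1317 and 1603 against 1331 and 1139 in ATV-CD98hc (-0.21, adjusted p = 0.397). For low over negative, 0 of 7 members in ATV-TfR and 1 of 7 in ATV-CD98hc (Slc40a1, 0.51) had an unadjusted p under 0.05, beside 1.5% and 2.97% of all genes called. In the difference between them it was 1 of 7 (Slc40a1, -0.83, adjusted p = 0.538), beside 1.68%.

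Astrocyte-like ferritin rested on single libraries in ATV-CD98hc. Without its replicate 1 low over negative was -0.46 for Fth1 and -0.48 for Ftl1, both called, and without its replicate 2 it was 0.04 and 0.10. Without ATV-CD98hc replicate 1 the negative bins also called Ftl1 (0.49) and Heph (-0.62) against control IgG. Each of these fits sets 1 library against 1, with the spread taken from the other groups. With all libraries, the negative bins gave 2 of 7 members under an unadjusted p of 0.05 for ATV-TfR minus ATV-CD98hc (Hmox1, 0.63, and Ncoa4, 0.22), beside 0.92% of genes called. They gave 1 of 7 for ATV-TfR minus control IgG (Heph, -0.40), beside 0.513%, and 1 of 7 for ATV-CD98hc minus control IgG (Heph, -0.39), beside 0.0688%. These last 2 share the 1 control IgG library, which is assumed to vary like the other groups.

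Oligodendrocyte-like cells, with the most Fth1, were compared in the negative bins, where 5 members passed the filter (Heph and Cp did not). Fth1 had 19880 and 20023 CPM in ATV-TfR, 18973 and 23202 in ATV-CD98hc and 18960 in control IgG. The 2 ATV groups overlapped, and the single control IgG library lay just below all 4 ATV libraries. The log2 fold changes were -0.07 for ATV-TfR minus ATV-CD98hc, 0.10 against control IgG for ATV-TfR and 0.18 for ATV-CD98hc, with standard errors of 0.16 to 0.20. In each contrast edgeR and DESeq2 called 0 members and 0 had an unadjusted p under 0.05. Of all genes 0.0901%, 0.00901% and 0.027% were called, and the Tfrc count, with the same limit, was among those lower in ATV-TfR than in ATV-CD98hc (-1.03, adjusted p = 0.0264). That call was lost under 5 of 13 alternatives, among them DESeq2 (adjusted p = 0.103) and a stricter filter on counts (adjusted p = 0.0668).

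**Figure D4:**
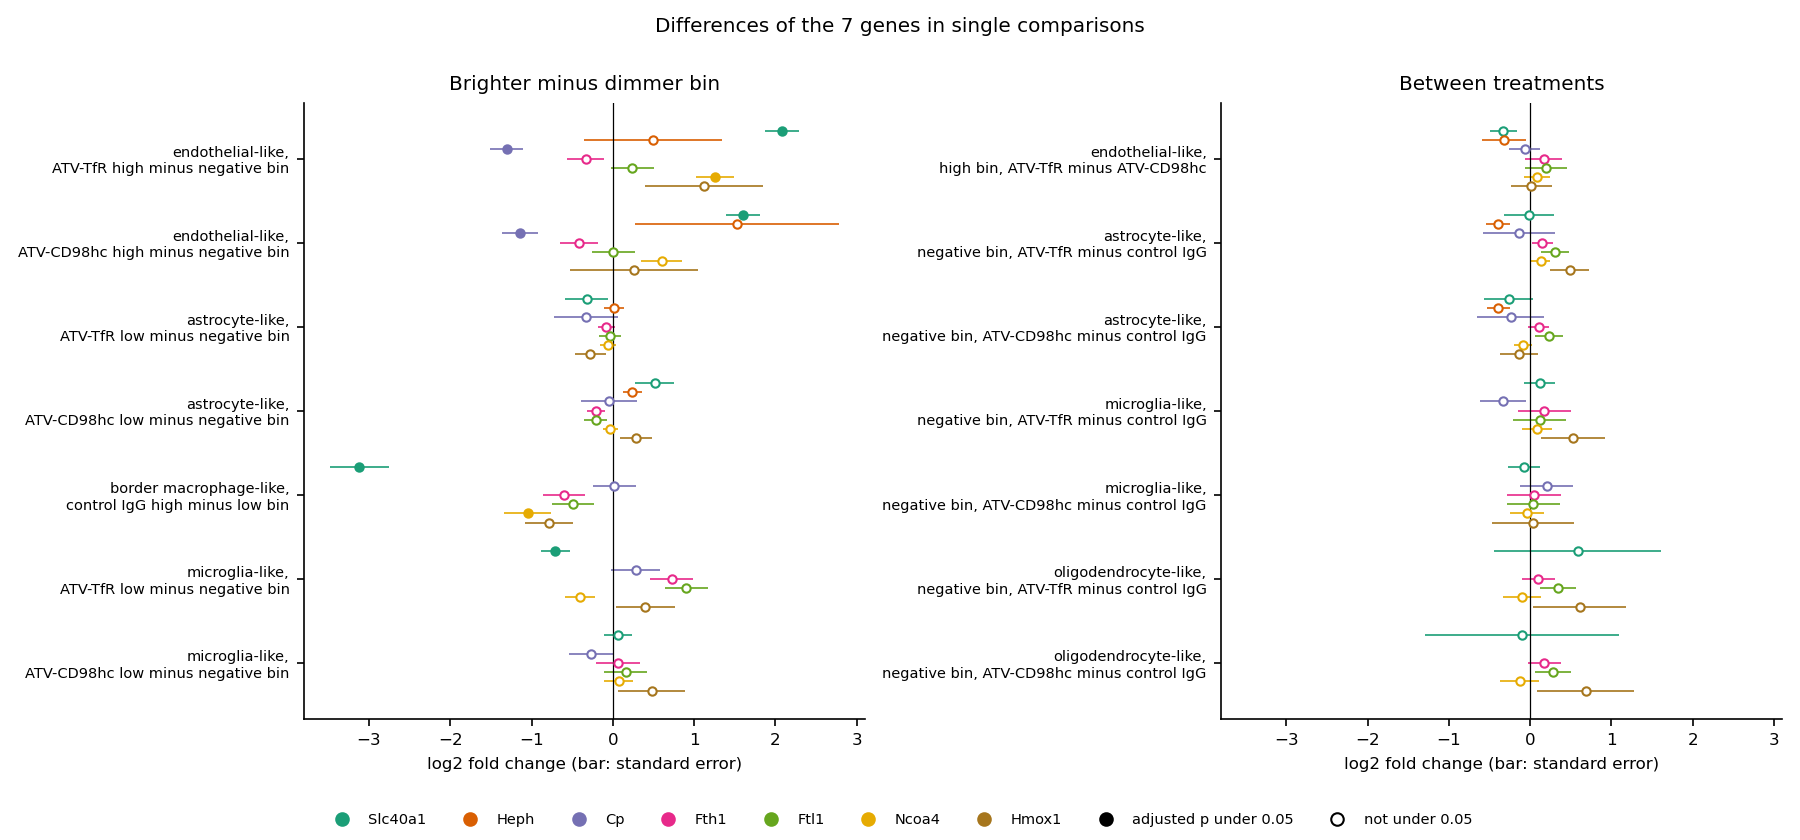
Log2 fold change with its standard error for the 7 genes in 7 comparisons between bins (left) and 7 between treatments (right), with filled points for an adjusted p under 0.05. Filled points appear in the bin panel only: Slc40a1 in both endothelial contrasts, border macrophage-like and ATV-TfR microglia-like cells, Cp in both endothelial contrasts, and Ncoa4 in ATV-TfR endothelial and border macrophage-like cells.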

How the data were processed

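The deposited matrix holds UMI counts, whole numbers with no normalization by the authors, made with Cell Ranger 7.1.0 per the file headers; the other deposited files list genes, barcodes and libraries. The genome builds mm10 and GRCm38 come from the submitters' processing notes. Kept barcodes had at least 500 genes, 800 UMIs and at most 10% mitochondrial UMIs. Doublets were removed per library by a simulated-doublet score, at its automatic threshold or, where that marked under 0.5% or over 25%, above percentile 94. Clusters (2000 variable genes, 50 principal components, 15 neighbours, igraph 0.11.9, resolution 1) were made without the members, the listed iron genes and the dosed receptors. A name needed 50% of a marker list, each marker in at least 5% of cells and at 25% of its highest cluster.

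UMIs were summed per class and library (at least 20 cells) and tested with edgeR 4.0.16 (quasi-likelihood, TMM, its low-count filter, 1 mean per group, limma 3.58.1, R 4.3.3). A gene was called at a Benjamini-Hochberg adjusted p under 0.05 over all genes tested. The edgeR script was tested on simulated counts. P-values rest on the spread of libraries (or pools) around their group means, estimated over all groups of a class in 1 fit. The main fit had no term for the pool and treated bins of a pool as independent. A group of 1 library adds nothing to that spread. Bins of a pool come from the same animals per the labels' protocols; deviations of same-numbered libraries correlated at 0.11 and 0.54 (endothelial), 0.35 and -0.01 (astrocyte), 0.18 and 0.15 (microglia) in ATV-TfR and ATV-CD98hc, and at 0.20 in control IgG border macrophages.

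Named are the 7 members everywhere, up to 6 called genes of the iron lists per comparison of endothelial-like or astrocyte-like bins or of treatments, and the 3 genes most like each member. Members and lists were chosen with earlier results of these data known. Another 5 comparisons (microglia low minus negative, border macrophages of the ATVs) were added after values were seen. The iron uptake list holds Tf, which the table does not name so; it counts as not measured. Alternatives were DESeq2 1.42.0, RLE scaling, other filters, finer clusters (resolution 2), the pool as a block and each pool left out.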

Additional observations from a re-analysis of the deposited data

Results flagged for a closer look

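Among the genes tested for a difference between the ATVs, 1 iron gene stood out. In endothelial-like cells the fall of Bmp6 from the negative to the high bin was larger in ATV-TfR than in ATV-CD98hc, with a difference of -4.07 on the log2 scale (SE 0.594, adjusted p = 0.0104, edgeR), the only gene of 14913 called. All 4 negative libraries lay above all 4 high libraries. The negative libraries had 117 and 125 CPM in ATV-TfR but 3 and 5 UMIs (11.1 and 29.5 CPM) in ATV-CD98hc. The call was lost with finer clusters (-3.22), without the Plvap cluster (-5.65), within the Gkn3 cluster (-4.18), and without ATV-CD98hc replicate 1 (-3.28) or either ATV-TfR replicate (-4.05 each).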

How the results depend on the processing

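Over all alternatives, 362 of the counts of members called and class levels stayed within 1.5 times the main count or 1 SD of the main level, and 40 moved. In 20 of the 25 comparisons the main count was 0, so many of the 362 are counts of 0 that stayed 0. Which gene was called did not enter. Of the values for single genes, 497 kept sign and call, 64 lost the call, 21 gained it and 6 turned sign. In endothelial-like cells the count went from 2 to 1 in ATV-CD98hc with finer clusters and in the Gkn3 cluster alone, and from 3 to 2 in ATV-TfR with finer clusters (Cp lost). Leaving out single pools gave 1 to 3 members in ATV-TfR (main 3) and 0 to 1 between the high bins (main 0), where Hmox1 was called without ATV-CD98hc replicate 2. In astrocyte-like cells leaving out single pools gave 0 to 2 in ATV-CD98hc low minus negative, 0 to 1 in the negative bins between the ATVs and 0 to 2 for ATV-CD98hc minus control IgG (main 0 each). In border macrophage-like cells of control IgG the count went from 2 to 1 with RLE scaling, DESeq2, no filter, a stricter filter on counts or cells, and finer clusters, and was 1 to 2 with pools left out. For ATV-TfR it went from 0 to 1 with DESeq2, no filter and the replicate block. For ATV-CD98hc it went from 1 to 0 with DESeq2 (which gave no adjusted p) and finer clusters, and was 0 to 1 with pools left out. In microglia-like cells of ATV-TfR the count went from 1 to 2 with RLE scaling, a stricter cell filter and finer clusters, to 3 with no filter, the Gpr34 cluster and the replicate block, and was 0 to 2 with pools left out. In endothelial-like ATV-CD98hc the replicate block gave 3 members in place of 2 (Fth1 added). Beside this and the 2 ATV-TfR counts just given (border macrophage-like and microglia-like), the block changed no call of a member. Levels moved for Slc40a1 in endothelial-like (152 CPM), Ncoa4 in endothelial-like (65.2) and Heph in fibroblast-like cells (26.7) in negative bins alone, for Fth1 in oligodendrocyte-like cells with the stricter cell filter (20911) and for Hmox1 in border macrophage-like cells with finer clusters (84.7). The sign turned for Fth1 with finer clusters in endothelial-like ATV-CD98hc (0.0139) and border macrophage-like ATV-TfR (0.415). Leaving out single pools gave -0.137 to 0.302 for Slc40a1 in microglia-like ATV-CD98hc, and in astrocyte-like ATV-CD98hc -0.456 to 0.0443 for Fth1 and -0.484 to 0.0984 for Ftl1 in low minus negative and -0.071 to 0.494 for Ftl1 in the negative bins against control IgG. The cause was not tested, except that leaving out a pool leaves 1 library in an arm. DESeq2 size factors moved the median of all genes in endothelial-like cells from 0.09 to -0.12 in ATV-TfR and from 0.16 to -0.15 in ATV-CD98hc, with the members' called directions unchanged. Few cells limit the ATV negative endothelial-like libraries (54 to 122 cells) and the bright microglia-like ones.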
